A study of Mus musculus with 9 samples.

Results

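The interferon regulatory factors (IRFs) are transcription factors that share a DNA-binding domain recognizing repeats of GAAA. The 8 family genes described here, Irf1, Irf2, Irf3, Irf4, Irf5, Irf7, Irf8 and Irf9, were taken by symbol from a table of 56289 genes. RNA was sequenced from mouse cultures labeled as RAW264.7, a macrophage-like line from the BALB/c strain, in 3 groups of 3 libraries each. Con received neither agent, TNF-α received the cytokine for 24 h, and TNF-α+WBT received the same cytokine together with Wang Bi tablet extract, a Chinese herbal preparation used against rheumatoid arthritis, also for 24 h. The labels name that extract WBP, which was read as the WBT of the study. According to the study, the cytokine was recombinant human TNF-α, used here on mouse cells. All groups are cultures of 1 cell line. Expression is given as FPKM, a fragment count scaled to transcript length and library depth, so levels of different genes can be set side by side.

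IRF1 activates antigen presentation and guanylate-binding protein genes, and IRF2 competes for the same sites, mostly as a repressor. IRF3 and IRF7 are phosphorylated downstream of sensors of foreign nucleic acid and then switch on type I interferon genes, whereas IRF9 is part of the complex ISGF3, which carries the interferon signal to antiviral genes. IRF5 acts downstream of Toll-like receptors on inflammatory cytokine genes. IRF4 and IRF8 shape macrophage, dendritic cell and lymphocyte development together with PU.1, the product of Spi1.

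The libraries held an estimated 16961093 to 26338251 fragments, with medians of 21692789 in Con, 21160641 in TNF-α and 18396195 in TNF-α+WBT. The labeled cell type was not borne out by its markers. Of 18 macrophage genes, only Cd14 exceeded 1 FPKM in all 9 libraries, and 8 genes, Spi1 and Ptprc among them, were listed at 0 in every library. The summed level of the 18 genes was 6.14 to 7.50 FPKM in Con, 7.11 to 8.21 in TNF-α and 7.24 to 8.89 in TNF-α+WBT. None of 9 lymphocyte or 6 dendritic cell genes exceeded 1 FPKM in all libraries, whereas 9 of 12 fibroblast genes, 8 of 12 Schwann cell genes and 12 of 12 genes used by every cell did. The summed fibroblast list was higher in TNF-α (5023 to 5285 FPKM) than in Con (4564 to 4846), and the summed Schwann list was lower (751 to 813 against 926 to 983). In TNF-α+WBT these sums were 4933 to 5052 and 818 to 847. S100a4, Sparc and Col1a1 weighed most in the fibroblast sums, with means of 1177, 1065 and 932 FPKM over 9 libraries. Lum, of the same list, was at 0 in every library. The part of the shifts of these sums in the IRF results was not tested. In bulk RNA, fewer cells of a type cannot be told apart from less RNA per cell.

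To show the sequence upstream of the genes that the tests called, 3 promoters were read from RefSeq (GRCm38.p6), 5′ to 3′ along each gene, from base -250 to the start or, for Irf7, to the base before its first annotated exon, with motif matches in capitals. The RefSeq table held 11 windows for the 8 genes, since some genes have more than 1 start.

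Irf1, chr11:53769764-53770013, plus strand: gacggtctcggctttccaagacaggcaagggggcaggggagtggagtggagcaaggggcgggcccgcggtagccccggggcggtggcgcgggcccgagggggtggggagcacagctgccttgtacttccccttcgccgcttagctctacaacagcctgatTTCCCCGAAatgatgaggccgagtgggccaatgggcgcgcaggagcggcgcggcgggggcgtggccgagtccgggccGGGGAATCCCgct
Irf5, chr6:29526375-29526624, plus strand: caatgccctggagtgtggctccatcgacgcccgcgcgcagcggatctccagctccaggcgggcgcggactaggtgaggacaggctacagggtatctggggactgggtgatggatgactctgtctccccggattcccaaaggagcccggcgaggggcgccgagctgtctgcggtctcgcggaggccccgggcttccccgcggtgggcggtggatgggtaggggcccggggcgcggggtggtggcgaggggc
Irf7, chr7:141266482-141266674, minus strand: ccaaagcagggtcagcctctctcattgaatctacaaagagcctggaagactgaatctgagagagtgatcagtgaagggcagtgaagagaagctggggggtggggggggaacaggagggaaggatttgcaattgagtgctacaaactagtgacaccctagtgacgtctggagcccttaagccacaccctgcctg

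Both strands were searched for 3 motifs, the IRF element GAAANNGAAA, the STAT-binding GAS element TTCNNNGAA and the NF-κB consensus. The Irf1 window held a GAS match from -90 to -82 (TTCCCCGAA) and an NF-κB match from -13 to -4 (GGGGAATCCC), shown in capitals. Irf2 held all 3 motifs, an IRF element at -241 to -232 (GAAAATGAAA), a GAS match at -224 to -216 and an NF-κB match at -17 to -8. Irf8 held 2 GAS matches, starting at -171 and -153. The windows of Irf3, Irf4, Irf5, Irf7 and Irf9 held none of these letters. The first of the Irf9 windows lay wholly within annotated Irf9 exons. By gene, 1 of 8 had an IRF element, 3 a GAS and 2 an NF-κB match, against 3.44%, 8.30% and 4.51% of 32851 promoter windows. Each gene's matches lay in 1 window, so by window, the unit of these shares, the same counts are out of 11. These matches describe letters and not sites bound in these cells.

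In untreated cells, the gene totals of Irf3 and Irf1 were the highest of the 8, followed by Irf2. Irf3 averaged 21.1 ± 1.97 FPKM (SD, n = 3) and Irf1 19.4 ± 0.222, and their libraries overlapped. Irf2 averaged 11.7 ± 1.66 and Irf9 4.31 ± 0.155. Irf5, at 0.965 ± 0.146, and Irf7, at 0.501 ± 0.112, lay under 1 FPKM on average. Irf8 (0.153 ± 0.0426) and Irf4 (0.0766 ± 0.0376) were lowest and overlapped each other, with 7.5 to 11.1 and 4.0 to 11.1 estimated fragments per library. The top of this order depends on transcript assignment. In Con, coding transcripts alone averaged 17.0 FPKM in Irf1, 7.93 in Irf3 and 7.50 in Irf2. Irf3 also held fewer estimated fragments per Con library (414 to 567) than Irf1 (717 to 921). Under TNF-α the order of gene totals changed at the top only, where Irf1 exceeded Irf3 in every library, and no neighbors in the order overlapped. By coding transcripts Irf1 led Irf3 there too (means 26.0 and 9.44). In TNF-α+WBT the lowest Irf1 library again fell within the Irf3 range. The 8 genes together summed to 56.2 to 60.2 FPKM in Con, 74.0 to 78.4 in TNF-α and 64.0 to 74.9 in TNF-α+WBT. Irf1 supplied 31.9% to 34.9%, 39.5% to 42.4% and 35.1% to 43.5% of these sums.

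**Figure D1:**
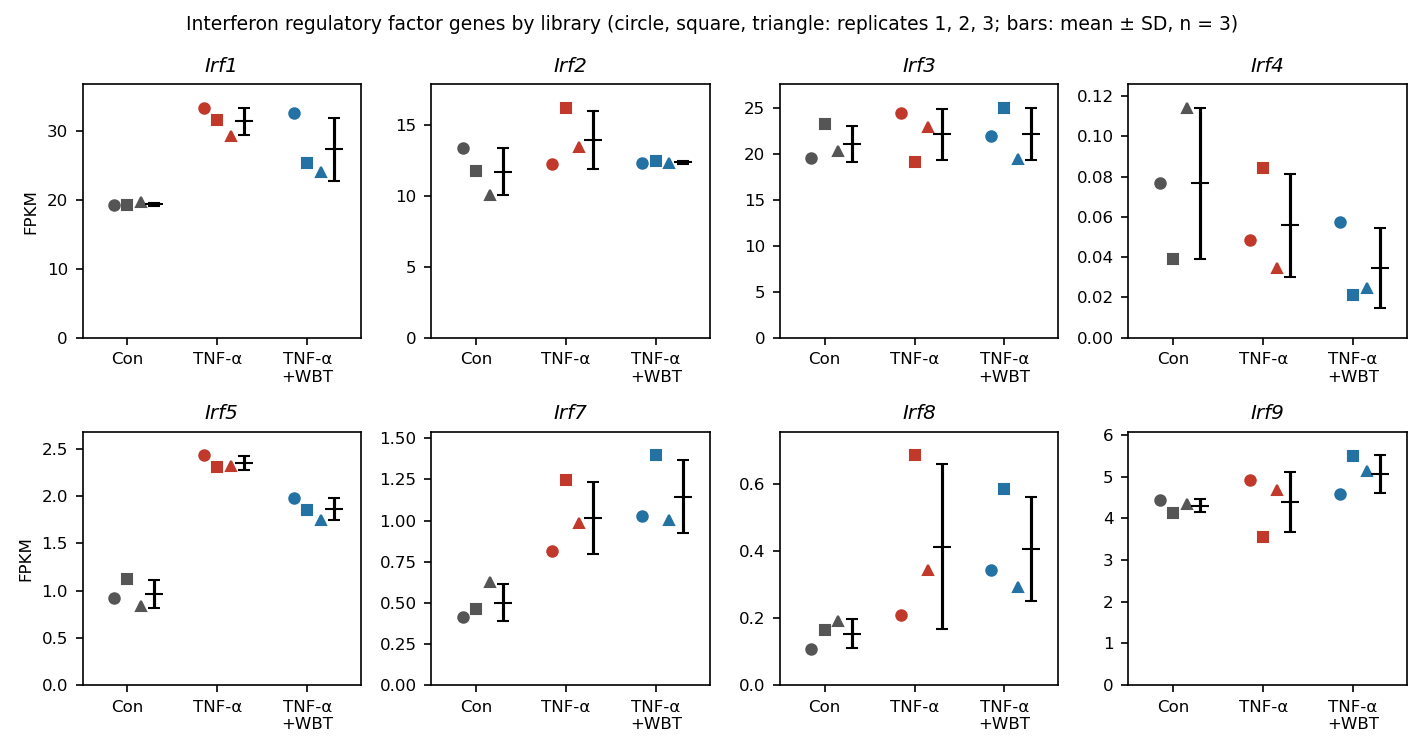
FPKM of the 8 IRF genes in each library, 1 panel per gene with its own scale from 0; circles, squares and triangles are replicates 1, 2 and 3, and the bars show mean ± SD (n = 3). Irf1, Irf5, Irf7 and Irf8 were higher in all TNF-α libraries than in all Con libraries, while Irf2, Irf3, Irf4 and Irf9 overlapped.

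The first comparison asked which IRF genes responded to TNF-α. Irf1 and Irf5 rose, and the other 6 did not pass the test (limma on log2(FPKM + 0.1), Benjamini-Hochberg adjusted p under 0.05 over 25417 genes). All 8 genes had passed the filter on low values. The 2 called genes stand beside 4.86% of all genes tested, 2.94% higher and 1.93% lower. With the thresholds of the study, more than 2-fold change at p under 0.05 without adjustment, 1 of 8 was called (Irf5), against 2.42% of all genes, where the fold was taken on the log2(FPKM + 0.1) scale. Taken as the ratio of mean FPKM at the same p, a scale added after the values were seen, 3 of 8 passed, against 4.38% of all genes. The ratios were 2.44 for Irf5, 2.03 for Irf7 and 2.69 for Irf8. The study itself lists IRF7 among the hub genes of a network that it built from its own differentially regulated genes. The median log2 fold change of the 8 was 0.47 and that of all genes tested 0.0028.

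Irf1 lies at chr11:53770014-53778374 on the plus strand. Its level was 19.3, 19.2 and 19.6 FPKM in Con replicates 1 to 3 and 33.2, 31.6 and 29.3 FPKM in TNF-α. The Con libraries lay close together and far below every TNF-α library. The log2 fold change was 0.69 (SE 0.10), a 1.61-fold difference with a 95% interval of 1.37 to 1.90 (limma, adjusted p = 0.00608). It was smaller, 0.50, by limma-voom on estimated fragments (adjusted p = 0.0189). The exact two-sided permutation test gave p = 0.1, the smallest that 3 libraries against 3 allow, here and for each gene below whose groups did not overlap. Some 135 exonic bases of Irf1 are shared with Gm17334, a gene on the opposite strand, whose level also rose from 1.56 to 2.58 FPKM (limma, adjusted p = 0.0425). The library kit is not described as stranded, so reads from the shared bases cannot be assigned to either gene. Irf2, the counterpart of Irf1 at chr8:46739732-46847458, was at 13.4, 11.8 and 10.1 FPKM in Con and 12.3, 16.3 and 13.5 in TNF-α. These ranges overlapped, with a log2 fold change of 0.25 (interval -0.03 to 0.53).

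Irf5, at chr6:29526625-29541871, had the highest fold change of the called genes. It measured 0.926, 1.13 and 0.842 FPKM in Con and 2.44, 2.31 and 2.32 FPKM in TNF-α, from 37.5 to 40.5 and 97.8 to 114 estimated fragments. Every TNF-α library was above every Con library, and the TNF-α libraries differed little from each other. The log2 fold change was 1.21 (SE 0.14), or 2.32-fold with an interval of 1.86 to 2.90 (limma, adjusted p = 0.00155). Irf5 shares 411 exonic bases with Tnpo3, a nuclear import receptor gene on the other strand. Tnpo3 averaged 25.7 FPKM in Con, 25.2 in TNF-α (limma, adjusted p = 0.925) and 26.2 in TNF-α+WBT. As with Irf1, reads from the shared bases cannot be assigned to either gene. Irf5-205, a transcript that reaches the annotated end of Irf5, averaged 0.00381 FPKM in Con, 0.0966 in TNF-α and 0.683 in TNF-α+WBT. The part of the shared bases in the Irf5 values was not tested.

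The lymphoid and myeloid factors Irf4 and Irf8 stayed low in all groups. Irf8 was at 0.106, 0.164 and 0.189 FPKM in Con and 0.208, 0.686 and 0.342 in TNF-α. The ranges did not overlap, but TNF-α replicate 1 was close to the highest Con library, and the estimated fragments did overlap, at 7.5 to 11.1 and 10.2 to 25.6. The log2 fold change of 0.92 had an interval of 0.06 to 1.79 and missed the threshold (limma, adjusted p = 0.275). Irf4 reached at most 11.1 estimated fragments in any library, and its groups overlapped (log2 fold change -0.17, interval -0.67 to 0.33).

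Of the genes downstream of nucleic acid sensors, Irf7 was higher in every TNF-α library but missed the threshold. Irf7, at chr7:141262706-141266481, measured 0.414, 0.461 and 0.627 FPKM in Con and 0.816, 1.25 and 0.983 in TNF-α, on 11.4 to 38.3 estimated fragments. The log2 fold change was 0.89 (SE 0.23, limma, adjusted p = 0.0788). Irf7 shares 45 exonic bases with Phrf1, a gene on the opposite strand. Phrf1 averaged 16.4 FPKM in Con, 18.4 in TNF-α and 15.7 in TNF-α+WBT. As with Irf1 and Irf5, reads from the shared bases cannot be assigned to either gene. The part of these bases in the low Irf7 values, with or without WBT, was not tested. Irf3, known as a constitutively expressed member, was at 19.5 to 23.3 FPKM in Con and 19.1 to 24.5 in TNF-α, with a log2 fold change of 0.07 (interval -0.20 to 0.34). Irf9, the DNA-binding subunit of ISGF3, was at 4.14 to 4.44 FPKM in Con and 3.57 to 4.93 in TNF-α, with a log2 fold change of 0.02 (interval -0.28 to 0.31). Of the 8 genes, 4 had groups that did not overlap, against 21.2% of all genes tested.

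The second comparison asked whether WBT altered IRF expression in the presence of TNF-α. None of the 8 genes was called by limma at adjusted p under 0.05, nor by limma-voom on estimated fragments. Irf5 was the single one of the 8 with an unadjusted p under 0.05, a threshold that 6.31% of all genes tested passed. Across all genes 0.00393% were called (1 gene), and 1.12% passed the thresholds of the study, none of them an IRF gene. The TNF-α libraries serve in both comparisons.

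Irf5 measured 1.98, 1.85 and 1.75 FPKM in TNF-α+WBT. All of these values lay below the lowest TNF-α library, at 2.31, and above the highest Con library, at 1.13. The log2 fold change against TNF-α was -0.32 (SE 0.14, interval -0.65 to -0.0043), with an adjusted p = 0.786 by limma. It was -0.55 by limma-voom on estimated fragments (adjusted p = 0.439). Irf5 was the only one of the 8 genes whose gene totals did not overlap between TNF-α+WBT and TNF-α, against 11.0% of all genes tested.

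Irf1 measured 32.6, 25.3 and 24.0 FPKM in TNF-α+WBT. Replicate 1 lay among the TNF-α libraries and the other replicates below all of them. The log2 fold change was -0.21 (interval -0.45 to 0.03, limma, adjusted p = 0.816), and it was -0.0059 by limma-voom on estimated fragments. The gene totals of the other 6 genes overlapped between TNF-α+WBT and TNF-α. Their log2 fold changes ran from -0.21 for Irf4 to 0.21 for Irf9. The intervals were narrowest for Irf3 (-0.27 to 0.27) and Irf2 (-0.44 to 0.11), and widest for Irf8 (-0.82 to 0.91), so changes of nearly 2-fold in Irf8 lie within its interval.

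**Figure D2:**
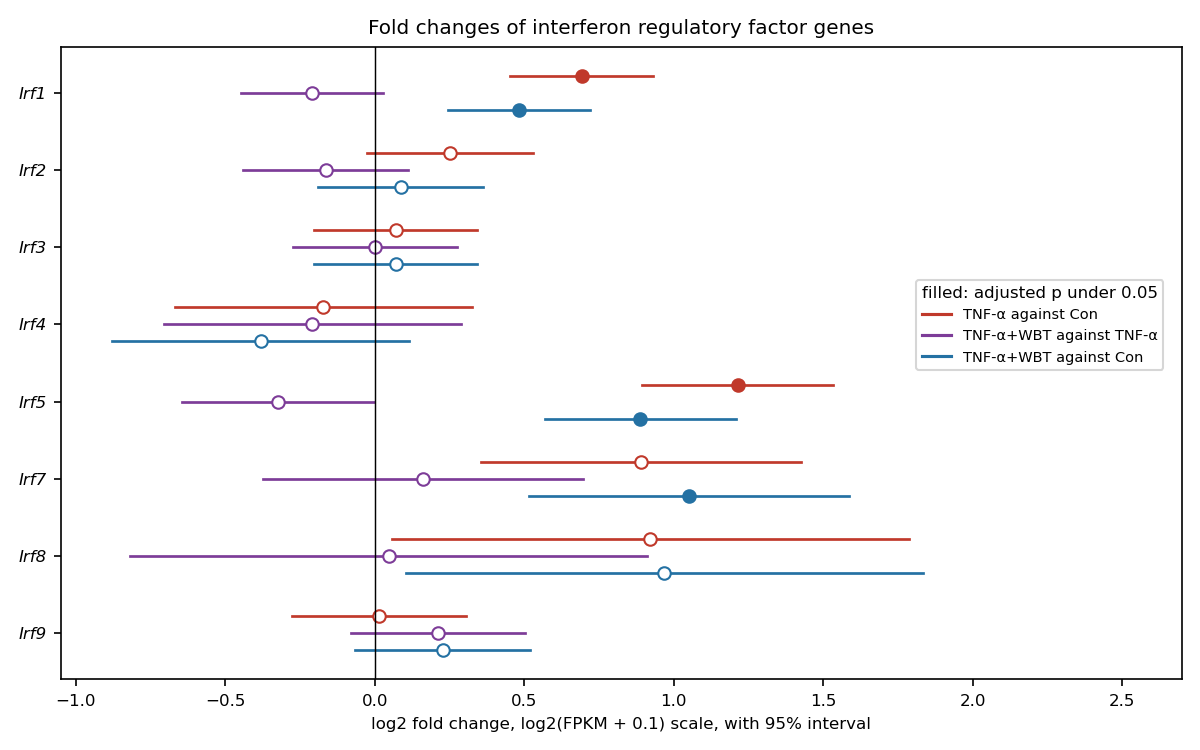
Fitted log2 fold changes of the 8 IRF genes with 95% intervals (limma, log2(FPKM + 0.1) scale) in 3 comparisons; filled points had an adjusted p under 0.05. Irf1 and Irf5 were called against Con with and without WBT, Irf7 with WBT only, and no point was filled for TNF-α+WBT against TNF-α.

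Against the same Con libraries, TNF-α+WBT was higher in Irf1, Irf5 and Irf7. The 3 called genes stand beside 3.71% of all genes tested, 2.31% higher and 1.4% lower. Irf5 had a log2 fold change of 0.89 (SE 0.14, limma, adjusted p = 0.00994), a call that was lost in a model of only the groups compared (adjusted p = 0.0582). Irf1 had one of 0.48 (SE 0.10, limma, adjusted p = 0.0426). The Irf1 call was lost without Con replicate 1, 2 or 3, or without TNF-α+WBT replicate 2, with adjusted p from 0.0746 to 0.122 by limma. Irf7, at 1.03, 1.40 and 1.005 FPKM with WBT, had a log2 fold change of 1.05 (SE 0.23, limma, adjusted p = 0.0483). That call was lost without any 1 of the 6 libraries compared (limma, adjusted p from 0.0620 to 0.152), and the log2 fold change was 1.67 by limma-voom on estimated fragments. The direct comparison of Irf7 between TNF-α+WBT and TNF-α gave 0.16 (interval -0.37 to 0.70) and 0.62 by limma-voom on estimated fragments (adjusted p = 0.785), so a difference between these groups was not shown. Irf8 and Irf9 also did not overlap with Con, which made 5 of 8 genes, against 19.5% of all genes tested.

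Transcript estimates varied more between libraries than gene totals did. Irf1 has 10 annotated transcripts, and 3 different ones were the most abundant over the 9 libraries. The transcript Irf1-202 was 1.60 to 6.89 FPKM in Con, 3.62 to 16.8 in TNF-α and 2.04 to 3.79 in TNF-α+WBT. Irf1-201 took up to 64.0% of the gene, in TNF-α+WBT replicate 1, where it reached 20.9 FPKM. The summed protein-coding transcripts of Irf1 were 17.0 ± 0.583 FPKM in Con, 26.0 ± 4.21 in TNF-α and 23.6 ± 5.28 in TNF-α+WBT, which kept the order of the gene values.

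Irf5 also had 3 different leading transcripts, and its coding transcripts held 94.6% to 100% of the gene. Their sum was 0.965 ± 0.146, 2.33 ± 0.0322 and 1.80 ± 0.0861 FPKM in the 3 groups. Irf7 had 5 different leading transcripts, and the coding share of its level ran from 2.52% to 55.9%. Its coding sum was 0.0652 ± 0.0436 FPKM in Con, 0.376 ± 0.126 in TNF-α and 0.486 ± 0.270 in TNF-α+WBT. Much of the Irf7 level in Con was therefore assigned to transcripts annotated as noncoding. The coding sums of Con did not overlap those of either treated group, but they lay near 0, at 0.0158 to 0.0985 FPKM. The whole gene held 11.4 to 15.7 estimated fragments per Con library. The share of all genes with such a separation was not computed, so a rise of coding Irf7 was not shown. In Irf3, coding transcripts made up 29.2% to 50.3% of the level. In Irf2 they made up 36.5% to 92.6%, and their sum was 8.88 to 11.4 FPKM in TNF-α+WBT and 4.47 to 8.21 in TNF-α. Irf2-210, annotated as a target of nonsense-mediated decay, went the other way, at 0.874 to 3.35 and 4.83 to 9.81 FPKM. The Irf2 gene totals overlapped, and the difference in its transcripts was not tested. How many of all genes or transcripts separate in this way was not computed either, so a shift between Irf2 transcripts was not shown.

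**Figure D3:**
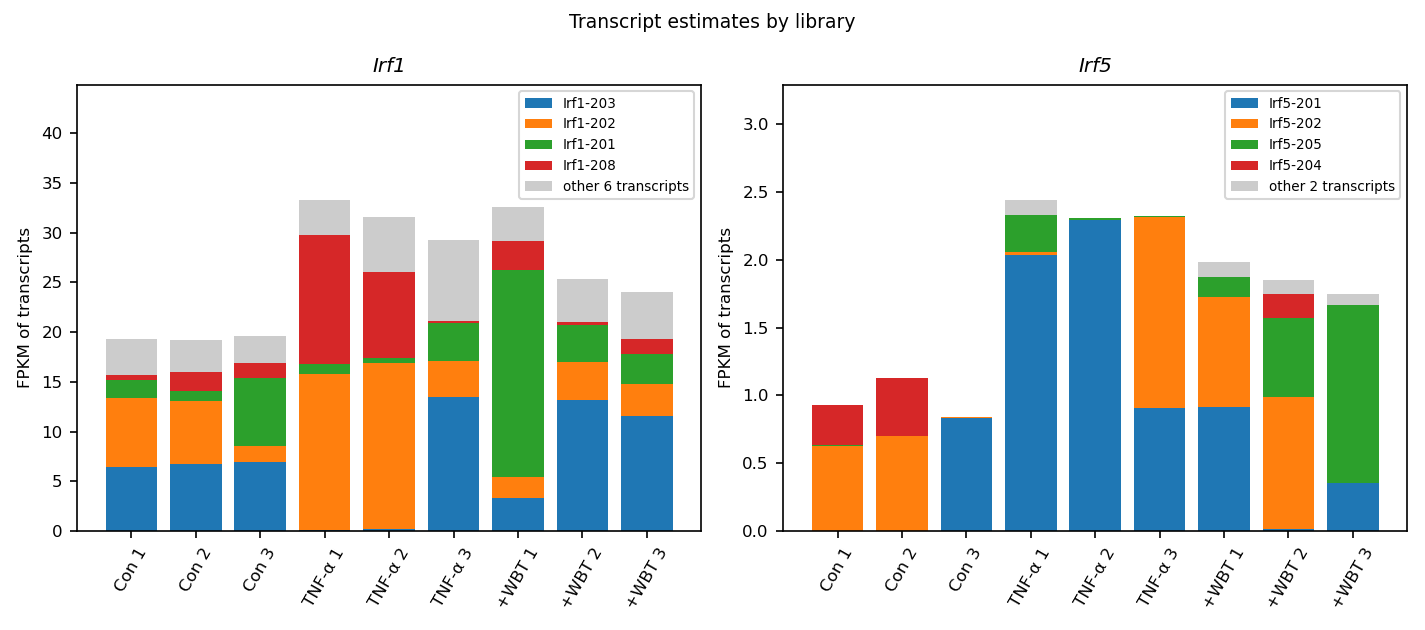
Stacked FPKM of annotated transcripts of Irf1 and Irf5 in each library, with the 4 most abundant transcripts colored and the others in gray. The leading transcript changed between libraries of the same group, while the total height separated TNF-α from Con for both genes.

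Interferon genes themselves were at or near 0. Of 12 interferon genes listed, 8, Ifnb1 and Ifng among them, were at 0 in all 9 libraries, and only Ifna11 was above 0 in enough libraries to be tested, at a mean of 0.028 FPKM or less in each group. The receptors and their kinases were present. Of 14 genes of interferon receptors and JAK-STAT signaling, 4 rose and 1 fell under TNF-α, where 2.94% of all genes tested rose and 1.93% fell. Ifngr2, a chain of the interferon-γ receptor, rose from 11.1 ± 0.990 to 27.4 ± 0.409 FPKM (log2 fold change 1.29), and Ifngr1, the other chain, from 31.5 ± 4.77 to 47.7 ± 5.62 (0.60). Jak2 (0.32) and Stat2 (0.31) rose less. Socs3, a feedback inhibitor of cytokine receptors, fell by 0.22 on the log2 scale. The median log2 fold change of the list was 0.19, against 0.0028 over all genes tested.

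Upstream of Irf3 and Irf7, 3 of 18 tested sensors and adaptors rose and 1 fell, beside the same 2.94% and 1.93% of all genes. Ddx58, which encodes the RNA sensor RIG-I, rose from 12.0 ± 0.543 to 22.8 ± 0.800 FPKM (log2 fold change 0.92). Traf3, an adaptor of this route, rose by 0.61 and Ikbke, a kinase of IRF3 and IRF7, by 0.46 on the log2 scale. Mavs, the mitochondrial adaptor that RIG-I signals through, fell by 0.28 on that scale. The list had a median log2 fold change of 0.18, against 0.0028 over all genes.

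NF-κB genes, named for the route by which TNF-α reaches many promoters, rose in 5 of 6 cases, against 2.94% of all genes tested. Relb went from 5.21 ± 0.504 to 23.5 ± 3.37 FPKM (log2 fold change 2.15), and Nfkbia, the inhibitor that NF-κB itself induces, from 24.7 ± 1.64 to 80.3 ± 1.52 (1.70). Nfkb2 (1.23), Rel (0.50) and Nfkb1 (0.38) also rose, and Rela missed the threshold. Of 8 tested IRF partners and binding proteins, 1 rose, beside the same 2.94%, and the list median was 0.0073, near the 0.0028 of all genes. The gene that rose was Spib, an ETS factor that can pair with IRF4 and IRF8, at 0.0151 ± 0.0140 FPKM in Con and 0.398 ± 0.0518 in TNF-α. It lies under the level set for naming and was named after its values were seen.

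Targets of ISGF3 and targets linked to IRF1 were described separately, each beside the 2.94% of all genes that rose, the 1.93% that fell and the all-gene median of 0.0028. Of 24 tested antiviral ISGF3 targets, 7 rose and none fell (limma), with a median log2 fold change of 0.47. The called genes included Bst2, or tetherin, which retains budding virus particles, at 42.2 ± 1.13 FPKM in Con and 89.7 ± 3.82 in TNF-α (1.09), and the ADP-ribosylation genes Parp14 (1.24) and Parp9 (0.92). Oasl2 (0.87) and Dtx3l (0.73), which encodes the binding partner of PARP9, rose as well. Isg15, Ifit1, Mx1 and Rsad2, named after their values were seen, were not called (limma, adjusted p from 0.0567 to 0.699). Only 13 of the 25 listed ISGF3 targets averaged 1 FPKM or more. Of 19 tested IRF1-linked targets, 10 rose and none fell (limma), with a median log2 fold change of 0.77. Cxcl10, a chemokine for T cells, rose from 0.335 ± 0.189 to 6.70 ± 0.769 FPKM (log2 fold change 4.07), and Vcam1, an adhesion molecule, from 10.7 ± 0.123 to 47.1 ± 2.84 (2.13). The guanylate-binding proteins Gbp3 (1.47) and Gbp2 (1.12) and the peptide-loading factor Tapbp (1.20) rose too. Several of these genes, Cxcl10 and Vcam1 among them, are also known NF-κB targets, and some belong to sets that the study selected on these libraries, so their direction is not independent evidence.

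**Figure D4:**
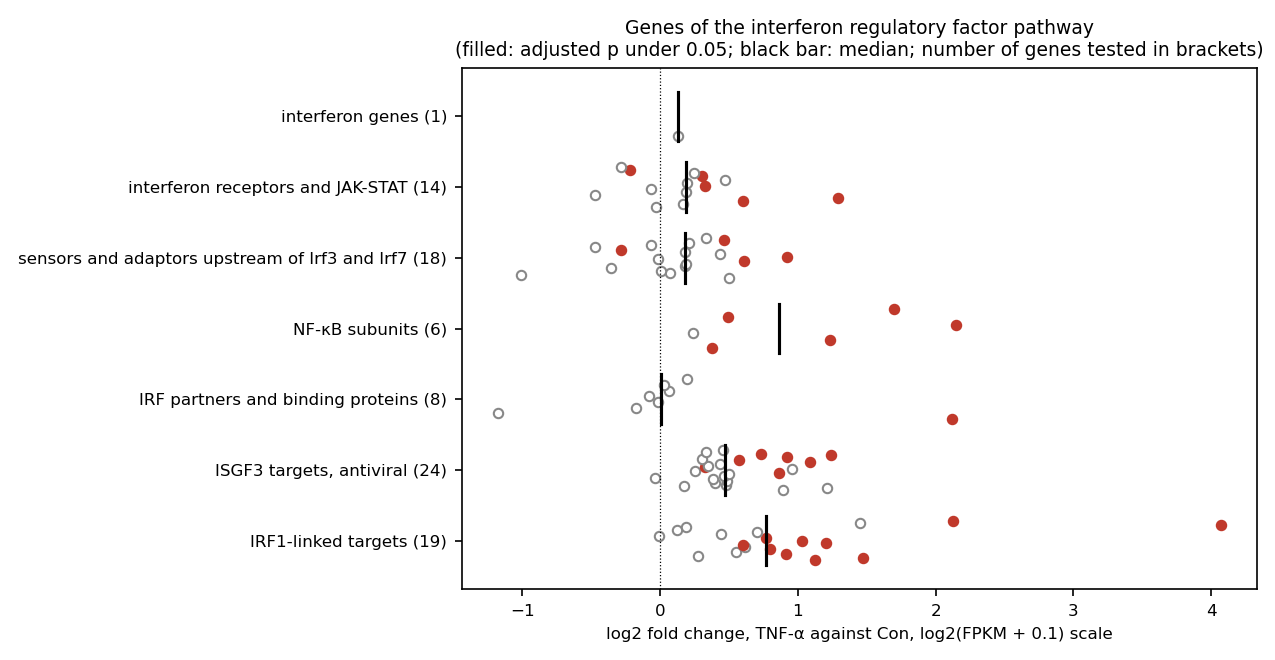
Log2 fold changes in TNF-α against Con for tested genes of 7 pathway lists, with 1 point per gene; filled points had an adjusted p under 0.05 and black bars mark list medians. The NF-κB list had a median of 0.86, the IRF1-linked targets 0.77 and the ISGF3 targets 0.47, and the interferon list had 1 tested gene.

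In TNF-α+WBT against TNF-α, no gene of any of these lists was called by limma. At an unadjusted p under 0.05 there were 1 of 14 receptor and JAK-STAT genes, 3 of 18 sensors and adaptors, 2 of 6 NF-κB genes, 0 of 8 partners, 2 of 24 ISGF3 targets and 4 of 19 IRF1-linked targets, against 6.31% of all genes tested. In that order the list medians on the log2 scale were -0.02, 0.02, -0.11, -0.04, -0.03 and -0.08, and the median of all genes was -0.0020. Against Con, the genes higher in TNF-α+WBT were 2 of 14 receptor and JAK-STAT genes, 2 of 18 sensors and adaptors, 5 of 6 NF-κB genes, 1 of 8 partners, 6 of 24 ISGF3 targets and 10 of 19 IRF1-linked targets. None of these lists held a lower gene by limma, and over all genes 2.31% were higher and 1.4% lower.

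Among 12685 genes averaging 1 FPKM or more, the profiles most like Irf1 over the 9 libraries were those of Cdk6 (Pearson r = 0.973), Ppic (0.969) and Ptgds (0.969). Those most like Irf5 were Tgm2 (0.989), Col6a2 (0.989) and H2-M3 (0.988). Tgm2 averaged 51.2, 71.5 and 66.5 FPKM in Con, TNF-α and TNF-α+WBT. These values describe 9 libraries that share groups, depth and treatment.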

How the data were processed

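RNA-seq was made by the authors from 9 cultures with a poly(A), paired-end TruSeq kit. The authors deposited FPKM per gene and per transcript, which the study derives with HISAT2, StringTie and Ballgown. Versions, genome build and annotation are not given in the sources used here. Symbols and positions came from GENCODE M21 (GRCm38), which named 55144 of the 56289 genes. No pair of libraries held identical values. Fragments were estimated from the steps of low FPKM values and carry the error of that estimate and of transcript assignment. Intervals come from the limma model and cover the spread between libraries only.

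The test was limma 3.58.1 (lmFit, eBayes with trend) in R 4.3.3 on log2(FPKM + 0.1), in 1 model of 9 libraries, for genes that exceeded 0 FPKM in 3 or more. A pseudocount of 0.1 understates fold changes of low genes. Python 3.11.15 and scipy 1.17.1 gave the exact tests. The scripts were tested on simulated data. Replicate numbers did not pair libraries (correlations of deviations -0.05 to 0.10). Members, lists and motifs were chosen with earlier results of these data known. Unless stated, named list genes were at most 5 per list, those called with a mean of at least 1 FPKM and the largest fold change. Protein sequences were not used here. Alternatives changed the pseudocount, filter, trend, samples, scaling, replicate block, model and libraries.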

Additional observations from a re-analysis of the deposited data

How the results depend on the processing

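TNF-α against Con gave the same 2 called genes, Irf1 and Irf5, in all settings run, and TNF-α+WBT against TNF-α gave 0 in all of them. Under the thresholds of the study, the count for TNF-α against Con, 1 as reported, was 0 with a pseudocount of 1, 3 with a pseudocount of 0.01, 3 with limma-voom, 3 with the fold as the ratio of mean FPKM (chosen after seeing the data), and 1 to 3 with a library left out (2 without Con replicate 3 and 3 without TNF-α replicate 1, adding Irf7, then Irf8). The count of 3 at adjusted p for TNF-α+WBT against Con was 1 with no filter on low values, 0 with only the groups compared and 1 to 2 with a library left out. It was 1, Irf5 alone, without each Con replicate or TNF-α+WBT replicate 2. The cause was not tested. In that comparison the Irf1 call was lost with a pseudocount of 1, no filter, no trend or only the groups compared (limma, adjusted p from 0.0502 to 0.109), the Irf7 call with no filter, median centring or only the groups compared (0.0508 to 0.102), and the Irf5 call with only the groups compared (0.0582). Limma-voom added Irf2 (log2 fold change 0.28, adjusted p = 0.0319).

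Signs turned only in genes that were not called in the comparison as reported; Irf2 in TNF-α+WBT against Con, called by limma-voom alone, was among them. Irf9 in TNF-α against Con, 0.02 as reported, was -0.0067 with quantile normalization and -0.0517 with limma-voom. In TNF-α+WBT against TNF-α, limma-voom gave 0.0461 for Irf2, 0.0806 for Irf3 and -0.0239 for Irf8. With a library left out, TNF-α against Con ran from -0.0059 to 0.17 for Irf3 and -0.073 to 0.16 for Irf9. TNF-α+WBT against TNF-α ran from -0.10 to 0.0892 for Irf3 and -0.265 to 0.41 for Irf8, and TNF-α+WBT against Con from -0.0192 to 0.18 for Irf2 and -0.023 to 0.16 for Irf3.

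With the replicate number as a block, 2 IRF genes were called in TNF-α against Con, 0 in TNF-α+WBT against TNF-α and 2 in TNF-α+WBT against Con, where Irf7 had an adjusted p = 0.0777 by limma. Irf4, Irf7 and Irf8 rest on at most 11.1, 51.8 and 25.6 estimated fragments per library, and the part of depth in their missed calls was not tested.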
